A study of Mus musculus with 9 samples.

Results

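The genes of the mitochondrial respiratory chain were followed in RNA-seq of the submandibular gland (SMG) of male mice that lack Hs3st3a1 and Hs3st3b1. The members were chosen by name from the 17562 rows of the deposited expression table. A row belonged if its symbol starts with Nduf, Uqcr, Cox4 to Cox8 or Atp5, or is Sdha, Sdhb, Sdhc, Sdhd, Cyc1 or Cycs, and holds no "-ps". The rule found 95 genes: 37 of complex I, 8 complex I assembly factors, 4 of complex II, 9 of complex III, Cycs, 19 of complex IV and 17 of complex V. The rule uses symbols and no expression value, and it was set with earlier results of these data known.

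The 9 libraries came from male mice, 4 WT and 5 DKO, with 1 gland a library. All mice were adults on a C57BL/6 background, and their ages are not given in the sources used here. DKO mice carried Hs3st3b1 knocked out together with a frameshift deletion that zinc finger nucleases had made in Hs3st3a1, and WT mice carried neither change. The alleles are germline and present in every cell, more than 1 founder line was kept, and the line behind each gland is not given in the sources used here. The question here was whether the members, complex by complex, differed between WT and DKO.

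The respiratory chain sits in the inner mitochondrial membrane. Complexes I and II take electrons from NADH and succinate and pass them through ubiquinone to complex III, cytochrome c carries them to complex IV, which reduces oxygen, and the proton gradient that complexes I, III and IV build drives ATP synthesis by complex V. Most subunits are encoded in the nucleus and a few, in the core of each complex except II, in mitochondrial DNA. In the SMG the striated ducts, which reabsorb salt from saliva against a gradient, are packed with mitochondria, and in male mice many ducts are converted to granular ducts that secrete kallikreins and growth factors.

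Promoters of nuclear respiratory chain genes are known for sites of NRF1, the GABP complex, estrogen-related receptors (ERR) and YY1. RefSeq promoters (GRCm38.p6, 250 bases before to 50 bases after the start site) could be matched to 76 of the 95 members. On either strand, the NRF1 core GCGCANGCG was found in 23 of the 76 (30.3%) and in 7.03% of the promoters of 27025 genes. The YY1 core AAGATGGC was found in 11 (14.5%, against 3.19% of all), the ETS site of GABPA, CCGGAAGTG, in 2 (2.63%, against 2.25%) and the ERR half-site TCAAGGTCA in 2, Sdhd and Atp5g3 (2.63%, against 0.466%). At least 1 of the 4 motifs stood in 35 of the 76 (46.1%, against 12%), and a match is a run of letters and not evidence of binding. The stretch of 110 bases just before the start site is given for Sdha (chr13:74350241-74350350), Sdhd (chr9:50603850-50603959) and Cycs (chr6:50566570-50566679), all on the minus strand, because these 3 genes of complex II and the cytochrome c pool show the motif that marks the members most often. Capitals are NRF1 cores, 3 in Sdha and 1 each in Sdhd and Cycs, where the core lies on the opposite strand.
Sdha: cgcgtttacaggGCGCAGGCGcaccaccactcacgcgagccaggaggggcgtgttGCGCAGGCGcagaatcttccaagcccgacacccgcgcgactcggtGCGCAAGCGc
Sdhd: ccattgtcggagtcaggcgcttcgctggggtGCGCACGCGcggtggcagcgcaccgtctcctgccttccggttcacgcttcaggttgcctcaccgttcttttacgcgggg
Cycs: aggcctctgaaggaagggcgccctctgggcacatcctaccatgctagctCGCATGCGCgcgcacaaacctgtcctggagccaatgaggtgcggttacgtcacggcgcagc

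The libraries held 17053747 to 37870519 counted reads. Hs3st3a1 had reads in all 4 WT libraries (0.115 to 0.386 CPM) and none in the 5 DKO libraries, and Hs3st3b1 fell from 2.99 to 5.37 CPM in WT to 0.508 to 1.85 CPM in DKO, a log2 fold change of -2.11 (95% interval -2.85 to -1.38, edgeR adjusted p = 0.0478), as the labels have it, though 10 of 20 alternatives did not call it (adjusted p up to 0.198, without WT 1). CPM here are read counts over TMM-scaled library size. The 20 most abundant genes of each library took 52.9 to 58.7% of the reads in WT and 59.4 to 70.3% in DKO. Of 13842 genes tested across the transcriptome, 87 (0.629%) were called at an adjusted p under 0.05 by edgeR. That number moved with the libraries and settings used. It was 0 with the replicate block or without WT 1, WT 3, WT 4, DKO 2 or DKO 5. It was 1 without DKO 1, 2 without DKO 3, 306 without WT 2 and 441 without DKO 4, and it was 5 with upper-quartile factors.

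No respiratory chain member was called. Of the 95 genes, 92 passed the filter on low counts and were tested, and Cox4i2, Cox6a2 and Cox6b2 did not pass. The edgeR quasi-likelihood test called 0 of the 92, where 0.629% of all tested genes were called, and DESeq2 also called 0, where it called 4.45% of all. At an unadjusted p under 0.05 edgeR picked 3 of the 92 (3.26%), Ndufs4, Cox5a and Ndufs7, against 14.5% of all tested genes. The 9 library values separated WT from DKO without overlap for 2 members (2.17%), Cox5a and Ndufs7, against 6.00% of all tested genes.

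Log2 fold changes, DKO over WT, had a median of 0.03 among the 92 members and of 0.01 among all tested genes. Fitted values lay above 0 for 56 members and below 0 for 36, beside 7273 above and 6569 below among all tested genes. For 88 members (95.7%) the fitted value was under 0.25 in size, against 63.6% of all tested genes. How far a difference could still hide was read from the 95% intervals, whose median half-width was 0.30 on the log2 scale. For 81 of the 92 members (88.0%) the whole interval lay within 1.5-fold in either direction, against 46.8% of all tested genes. The intervals of the other 11 were wider (Atp5k, Atp5l, Atp5md, Atp5mpl, Cox6c2, Cox7a1, Cox8b, Ndufa1, Ndufa3, Ndufa4l2 and Ndufaf6). Such shares were not particular to the chain. Intervals lay within 1.5-fold for 100% of 77 tested mitochondrial ribosomal protein genes and 94.7% of 19 citric acid cycle and pyruvate genes. The same held for 91.3% of 23 carrier, import and structure genes and 81.6% of 38 other assembly factors. Values under 0.25 in size made up 97.4, 89.5, 91.3 and 97.4% of these lists. None of these shares was set against genes of like level. Mean levels in WT were above 1 CPM for 90 of the 95 members and above 100 CPM for 41. In whole gland RNA, a lower number of mitochondria-rich cells and less RNA per cell cannot be told apart, and neither can opposite differences in separate cell types.

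**Figure D1:**
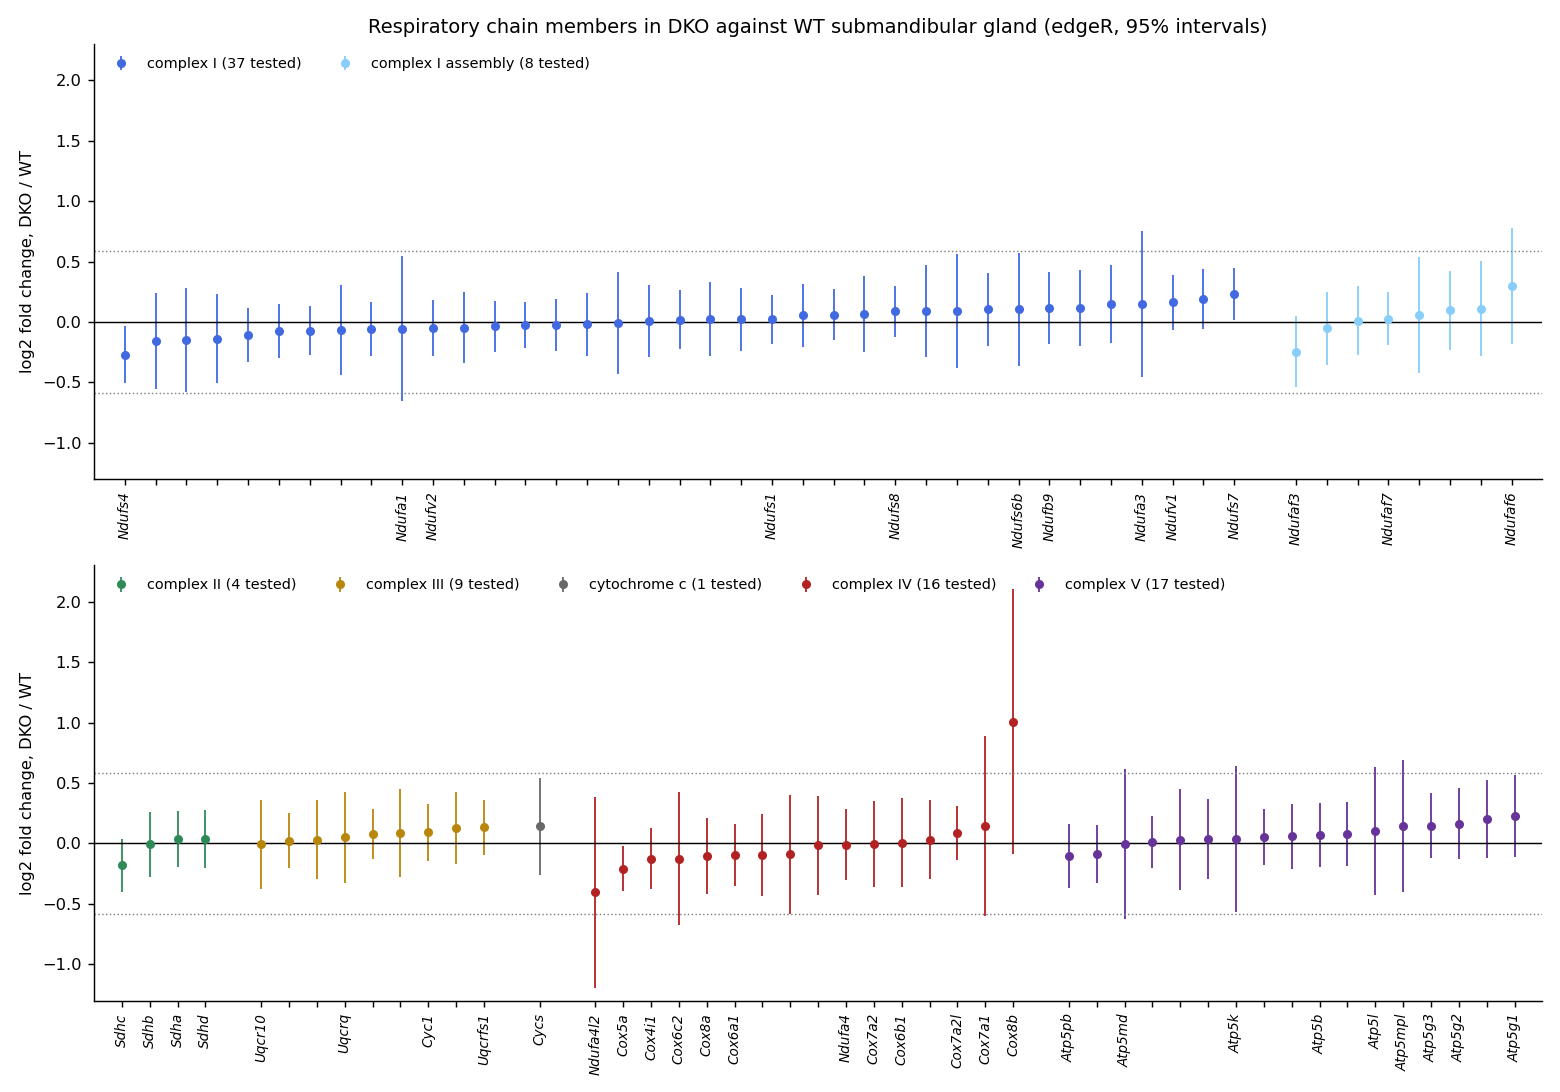
Log2 fold change of DKO over WT for the 92 tested members (points, edgeR) with 95% intervals (bars), ordered within each complex and labelled where the text names the gene, and dotted lines at 1.5-fold in either direction. Of the 92 points 88 lie between -0.25 and 0.25, and the widest intervals are those of Cox8b, Ndufa4l2 and Cox7a1.

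Complex I, the NADH dehydrogenase, had 37 members, all tested, with a median log2 fold change of 0.02 (20 above 0 and 17 below). The range ran from -0.27 for Ndufs4 to 0.23 for Ndufs7, and 35 of 37 intervals lay within 1.5-fold. Ndufs4 (chr13:114287795-114388258) encodes an accessory subunit whose loss in mice and people causes a Leigh-like disease. It was measured at 70.2, 55.9, 54.8 and 65.2 CPM in the 4 WT libraries and at 49.98, 51.5, 46.1, 49.5 and 57.96 CPM in the 5 DKO libraries. Values of the groups overlapped only through the highest DKO library, and the log2 fold change was -0.27 (95% interval -0.51 to -0.04, edgeR adjusted p = 0.269). Its unadjusted p of 0.0277 is the smallest among the members.

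Ndufs7 (chr10:80249121-80256794) encodes the core subunit that holds the last iron-sulfur cluster before ubiquinone. It was measured at 146, 137, 137 and 141 CPM in the 4 WT libraries and at 156, 154, 175, 153 and 184 CPM in the 5 DKO libraries. Every DKO library was above every WT library. The exact two-sided permutation test gave p = 0.00794, the smallest that 126 splits allow, which follows from the lack of overlap and is no further evidence. The log2 fold change was 0.23 (95% interval 0.02 to 0.44, edgeR adjusted p = 0.302). Other core subunits carried the same sign at smaller size, with 0.16 for Ndufv1 and 0.09 for Ndufs8, and neither passed the test. With total read scaling in place of TMM, the value of Ndufs7 turned to -0.07. Ndufs1 and Ndufv2, core subunits as well, had fitted values of 0.02 and -0.05.

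Levels between genes were compared per kb, as mean CPM divided by the length of a representative transcript. Within complex I the WT level ran from 5.38 CPM per kb for Ndufs6b, which the annotation lists as a processed pseudogene, to 738 CPM per kb for the accessory subunit Ndufb9. The median of the 37 was 106 CPM per kb in WT and 101 CPM per kb in DKO. Reads of near copies limit some of these values: 22 of the 95 members had more than 25% of the 50-base windows of their transcript in another annotated transcript, and 43 had none. Ndufb9 stood at 519 ± 58.7 CPM (WT, SD, n = 4) against 562 ± 74.5 CPM (DKO, SD, n = 5), and its log2 fold change was 0.11 (95% interval -0.18 to 0.41, edgeR adjusted p = 0.777).

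The 8 assembly factors, which build complex I and are not part of it, were less abundant, with a WT median of 10.5 CPM per kb. Their median log2 fold change was 0.04 and 6 of the 8 values lay above 0. Ndufaf6 had the highest log2 fold change, 0.29 (95% interval -0.19 to 0.77, edgeR adjusted p = 0.613), from only 1.39 to 2.14 CPM in WT and 1.70 to 2.54 CPM in DKO. Ndufaf3 had the lowest, -0.25 (95% interval -0.54 to 0.05, edgeR adjusted p = 0.449). It was measured at 17.7, 19.3, 18.6 and 18.2 CPM in the 4 WT libraries and at 13.97, 17.1, 11.7, 16.3 and 18.9 CPM in the 5 DKO libraries, so that 4 of 5 DKO libraries lay under the WT range and DKO 5 lay inside it. Ndufaf7, the arginine methyltransferase of this group and its most abundant member at 24.3 CPM per kb, had a fitted log2 fold change of 0.03 (95% interval -0.19 to 0.24, edgeR adjusted p = 0.937).

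Complex II, succinate dehydrogenase, also runs a step of the citric acid cycle and has no subunit in mitochondrial DNA. Sdha, the flavin subunit, was measured at 348, 412, 397 and 375 CPM in the 4 WT libraries and at 397, 376, 393, 376 and 423 CPM in the 5 DKO libraries, with a log2 fold change of 0.04 (95% interval -0.19 to 0.26, edgeR adjusted p = 0.920). Sdhb, the iron-sulfur subunit, was the most abundant of the 4 at 388 CPM per kb and had a fitted log2 fold change of -0.01 (95% interval -0.28 to 0.26, edgeR adjusted p = 0.988). Fitted values of the membrane anchors Sdhc and Sdhd had opposite signs, and both intervals included 0. Sdhc was measured at 47.6, 40.6, 39.3 and 45.9 CPM in the 4 WT libraries and at 38.6, 37.4, 33.7, 39.7 and 41.7 CPM in the 5 DKO libraries, where the 3 lowest DKO libraries lay under the WT range, and had a fitted log2 fold change of -0.18 (95% interval -0.40 to 0.04, edgeR adjusted p = 0.450). Sdhd had a fitted log2 fold change of 0.04 (95% interval -0.20 to 0.28, edgeR adjusted p = 0.920), with groups that overlapped over most of their range. All 4 intervals lay within 1.5-fold.

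Complex III, the cytochrome bc1 complex, had 9 members with a median of 0.08, 8 of them above 0, and none passed the test. The range was narrow, from -0.01 for Uqcr10 to 0.13 for Uqcrfs1, the Rieske iron-sulfur protein. Uqcrfs1 was measured at 186, 186, 161 and 185 CPM in the 4 WT libraries and at 189, 189, 227, 185 and 194 CPM in the 5 DKO libraries, with 4 of 5 DKO libraries above the highest WT library and 1 inside the WT range, and had a fitted log2 fold change of 0.13 (95% interval -0.09 to 0.36, edgeR adjusted p = 0.627). Cyc1, the cytochrome c1 that hands electrons on, had a fitted log2 fold change of 0.09 (95% interval -0.15 to 0.33, edgeR adjusted p = 0.776), and its highest library was DKO 3 at 185 CPM. Uqcrq was the most abundant per length (372 CPM per kb), at 151 ± 32.5 CPM (WT, SD, n = 4) against 156 ± 29.5 CPM (DKO, SD, n = 5). Intervals of all 9 lay within 1.5-fold.

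Cycs, the mobile carrier cytochrome c, was measured at 25.3, 18.8, 18.8 and 26.1 CPM in the 4 WT libraries and at 19.7, 22.1, 35.9, 24.1 and 20.96 CPM in the 5 DKO libraries. Its highest value was again DKO 3, the other 4 DKO libraries lay inside the WT range, and the log2 fold change was 0.14 (95% interval -0.26 to 0.55, edgeR adjusted p = 0.797). At 7.13 CPM per kb it stood far under Cyc1 (95.9 CPM per kb) in WT. Of the 50-base windows of its transcript 28.5% also occur in other annotated transcripts, most in Gm10053, so its reads may have been shared.

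Complex IV, cytochrome c oxidase, had 19 members, of which 16 were tested. Its median was -0.05, with 5 values above 0 and 11 below, and 12 of 16 intervals within 1.5-fold. That median was above 0 without DKO 4 (0.01), WT 1 (0.03) or WT 4 (0.07). Cox5a (chr9:57521274-57532426), an accessory subunit present in all tissues, was measured at 70.4, 66.03, 62.6 and 70.2 CPM in the 4 WT libraries and at 55.05, 55.9, 59.7, 59.5 and 61.2 CPM in the 5 DKO libraries. Every DKO library was under every WT library (exact two-sided permutation p = 0.00794, the smallest possible), by margins that the transcriptome-wide test did not call, with a log2 fold change of -0.21 (95% interval -0.40 to -0.02, edgeR adjusted p = 0.291). Cox4i1, its contact in the complex and the most abundant member of complex IV per length (721 CPM per kb), was measured at 605, 513, 464 and 567 CPM in the 4 WT libraries and at 497, 463, 505, 478 and 519 CPM in the 5 DKO libraries. The WT and DKO ranges of Cox4i1 overlapped, and it had a fitted log2 fold change of -0.13 (95% interval -0.38 to 0.13, edgeR adjusted p = 0.699).

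Several subunits of complex IV come as pairs, with 1 form in most tissues and another in fewer tissues, such as heart, skeletal muscle, brown fat or lung. In the SMG the common form supplied most of each pair. Per length, Cox4i2 was 0.0151 to 0.102% of the pair in WT and 0.0254 to 0.130% in DKO, Cox6a2 was 0.0379 to 0.141% of the pair in WT and 0.0471 to 0.452% in DKO, Cox6b2 was 0.104 to 0.197% of the pair in WT and 0.0653 to 0.216% in DKO and Ndufa4l2 was 0.139 to 0.302% of the pair in WT and 0.0808 to 0.317% in DKO. Reads behind the first 3 were few, 2 to 21 a library for Cox4i2, 1 to 13 for Cox6a2 and 2 to 10 for Cox6b2, and they were not tested. Cox7a1, the heart and muscle partner of Cox7a2, made up more, 2.81 to 7% of the pair in WT and 5.53 to 8.12% in DKO.

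Cox8b, the contractile tissue form of Cox8a, had the largest fitted difference of any member. It was measured at 0.268, 0.612, 0.177 and 1.12 CPM in the 4 WT libraries and at 1.03, 0.617, 0.825, 1.19 and 1.74 CPM in the 5 DKO libraries, which is 6 to 35 reads a library. The 3 lowest libraries were WT, but the groups overlapped, since WT 4 lay above 3 DKO libraries, and the log2 fold change was 1.01 (95% interval -0.09 to 2.11, edgeR adjusted p = 0.394). Leaving out WT 4 moved the value of Cox8b to 1.62 and leaving out WT 3 moved it to 0.67, and limma-trend with a pseudocount of 1 gave 0.44. Per length it was 0.198 to 0.758% of the pair in WT and 0.529 to 1.31% in DKO. Ndufa4l2, a form known to rise in hypoxia, had the lowest fitted value, -0.40 (95% interval -1.19 to 0.38, edgeR adjusted p = 0.683), at 0.803 to 1.38 CPM in WT and 0.411 to 1.38 CPM in DKO. Cox7a1 had a fitted log2 fold change of 0.14 (95% interval -0.60 to 0.89, edgeR adjusted p = 0.902), with its lowest library in WT 3 at 2.83 CPM.

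The common partners had narrower intervals. Fitted values were -0.10 for Cox6a1, 0.01 for Cox6b1, -0.0049 for Cox7a2, -0.10 for Cox8a and -0.01 for Ndufa4, which was first named as complex I and belongs to complex IV. None passed the test. Cox7a2l, named for its likeness to Cox7a2, was at 55.5 ± 2.92 CPM (WT, SD, n = 4) against 58.99 ± 6.23 CPM (DKO, SD, n = 5), and its log2 fold change was 0.09 (95% interval -0.13 to 0.31, edgeR adjusted p = 0.763).

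Other cell types hold the muscle and fat forms, so their markers were read beside them. Skeletal muscle markers were near the floor: 4 of 19 were tested, Myh1, Myh4, Tnnc2 and Pvalb had no read in any library, and the 4 tested summed to 3.56 to 7.90 CPM in WT and 2.99 to 5.15 CPM in DKO. Acta1, skeletal actin, fell, at a log2 fold change of -3.65 (95% interval -4.77 to -2.53, edgeR adjusted p = 0.0385), a call that 8 of 20 alternatives did not make (adjusted p up to 0.198), while Ckm, muscle creatine kinase, had a fitted log2 fold change of 0.61 (95% interval 0.03 to 1.19, edgeR adjusted p = 0.313). Ucp1, which defines brown fat, had no read, and 1 of 4 brown fat markers, Cidea, was tested, with a log2 fold change of 0.49 (95% interval -0.15 to 1.12, edgeR adjusted p = 0.492). Of 6 adipocyte markers, 2 were tested and neither was called by edgeR or DESeq2, nor at an unadjusted p under 0.05, with a summed level of 2.14 to 3.13 CPM in WT and 2.54 to 5.64 CPM in DKO. All 6 pericyte and vascular smooth muscle markers were tested and none was called by either tool, nor at an unadjusted p under 0.05. The part of these cells in the values of Cox8b and Cox7a1 was not tested.

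**Figure D2:**
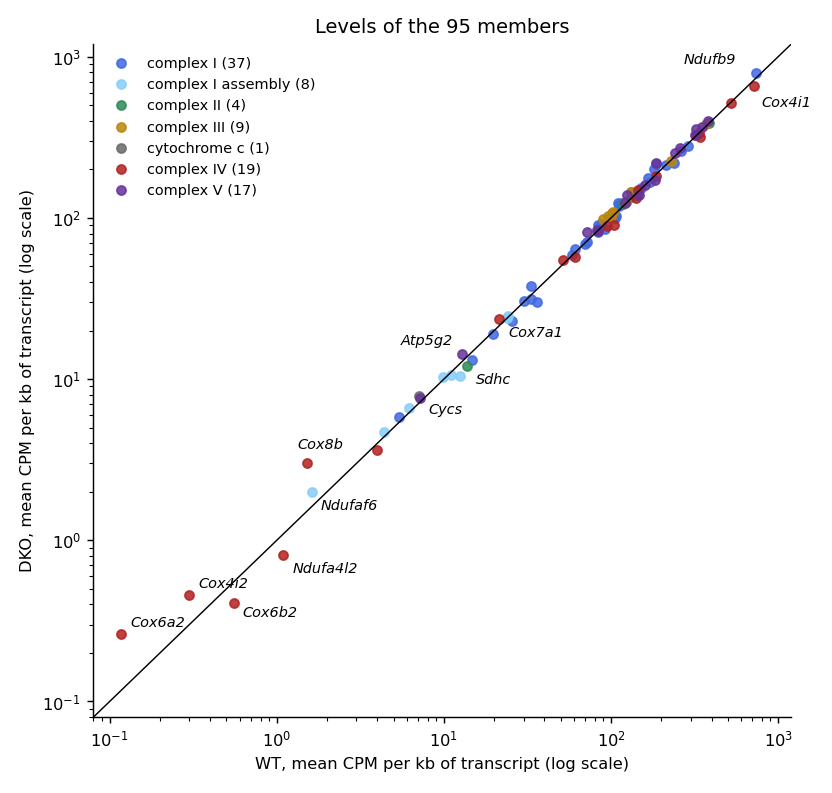
Mean level of each of the 95 members in DKO (vertical, n = 5) against WT (horizontal, n = 4), in CPM per kb of transcript on log axes, coloured by complex, with the line of equal levels. Points above 10 CPM per kb lie close to the line, and Cox8b, Ndufa4l2 and the untested Cox6a2, Cox4i2 and Cox6b2 lie at the low end.

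Complex V, the ATP synthase, had 17 members with a median of 0.06, 14 above 0 and 3 below, none of which passed the test. The range ran from -0.10 for Atp5pb, a subunit of the peripheral stalk, to 0.23 for Atp5g1, which encodes the c subunit of the rotor ring. Atp5g1 was measured at 143, 118, 111 and 146 CPM in the 4 WT libraries and at 124, 140.2, 198, 128 and 166 CPM in the 5 DKO libraries. Its 2 highest libraries were DKO and its 2 lowest were WT, the groups overlapped, and it had a fitted log2 fold change of 0.23 (95% interval -0.11 to 0.56, edgeR adjusted p = 0.571). The other genes for the same c subunit had fitted values of 0.16 (Atp5g2) and 0.15 (Atp5g3), and neither passed the test. Atp5g2 counts are uncertain, since every 50-base window of its transcript also occurs in another annotated transcript. For Atp5g1 56.2% of the windows do.

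Atp5b, the catalytic beta subunit, was the most abundant member of complex V per length (381 CPM per kb). It was measured at 704, 783, 659.7 and 772 CPM in the 4 WT libraries and at 721, 758, 888, 719 and 743 CPM in the 5 DKO libraries, with DKO 3 above all other libraries and the remaining 8 mixed, and had a fitted log2 fold change of 0.07 (95% interval -0.20 to 0.34, edgeR adjusted p = 0.858). Atp5pb was at 296 ± 50.7 CPM (WT, SD, n = 4) against 275 ± 10.3 CPM (DKO, SD, n = 5), with WT 1 as its highest library at 368 CPM, and had a fitted log2 fold change of -0.10 (95% interval -0.37 to 0.16, edgeR adjusted p = 0.771). The intervals of 4 of the 17 reached beyond 1.5-fold, those of Atp5k, Atp5l, Atp5md and Atp5mpl, all small subunits with short transcripts.

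Summed over members, the levels of the complexes lay close together in the 2 groups. Complex I summed to 3235 to 4235 CPM in WT and 3506 to 4458 CPM in DKO. Complex III summed to 941 to 1208 CPM in WT and 1011 to 1258 CPM in DKO, complex IV to 1527 to 2227 CPM in WT and 1646 to 2143 CPM in DKO and complex V to 3017 to 3529.7 CPM in WT and 3136 to 3922 CPM in DKO. In each of these complexes the ranges overlapped.

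**Figure D3:**
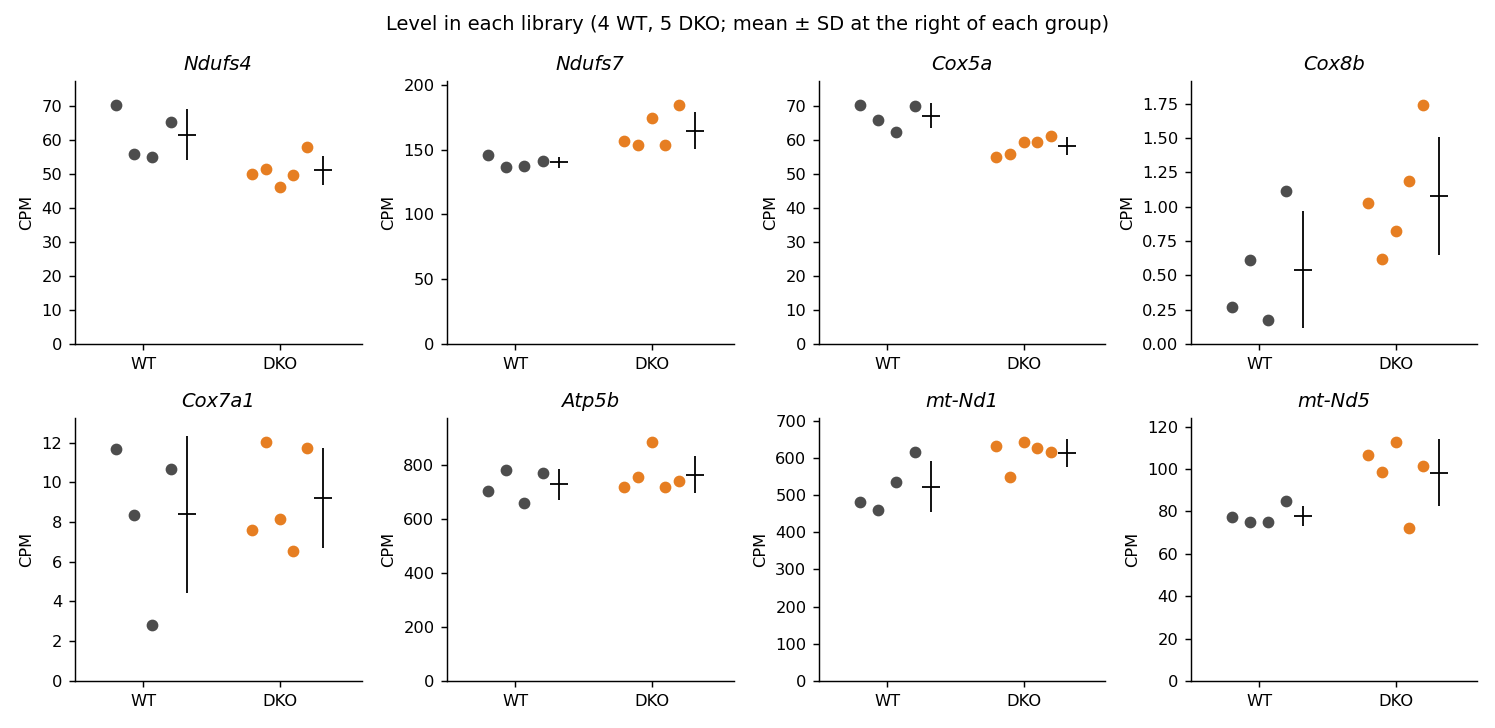
Level in CPM (vertical axis from 0) in each of the 4 WT (grey) and 5 DKO (orange) libraries for 6 members and 2 genes of mitochondrial DNA, with mean ± SD beside each group. WT and DKO do not overlap for Ndufs7 and Cox5a and overlap for the other genes shown.

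The partners of these subunits encoded in mitochondrial DNA could be read only in part. Of the 13 protein genes, 7 had reads and were tested, at a median of 0.23 on the log2 scale, all 7 above 0 with TMM scaling (the median is -0.06 with total read scaling) and 0 called by edgeR or DESeq2. At an unadjusted p under 0.05 stood 2 of the 7, mt-Nd5 and mt-Nd6, where 14.5% of all tested genes did. The complex I gene mt-Nd5 was measured at 77.2, 74.8, 74.9 and 84.8 CPM in the 4 WT libraries and at 107, 98.6, 113, 72.2 and 102 CPM in the 5 DKO libraries. DKO 4 was the lowest of all 9 libraries and the other 4 DKO libraries lay above every WT library, and the log2 fold change was 0.34 (95% interval 0.06 to 0.62, edgeR adjusted p = 0.248). Leaving out DKO 4 moved it to 0.43, which edgeR then called (adjusted p = 0.0479, the lowest of a range up to 0.910 over the alternatives). On the same log2 scale the other genes had 0.33 (95% interval 0.05 to 0.61, edgeR adjusted p = 0.256) for mt-Nd6, 0.23 (95% interval -0.04 to 0.50, edgeR adjusted p = 0.446) for mt-Nd1, 0.26 (95% interval -0.06 to 0.58, edgeR adjusted p = 0.464) for mt-Cytb of complex III, and 0.03 (95% interval -0.44 to 0.50, edgeR adjusted p = 0.967) for mt-Co1 of complex IV. For mt-Nd2 and mt-Nd4 the values were 0.11 and 0.15.

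The remaining 6, mt-Co2, mt-Co3, mt-Atp6, mt-Atp8, mt-Nd3 and mt-Nd4l, are listed at 0 in every library. For 5 of them, 98% or more of the 50-base windows of the transcript also occur in annotated nuclear copies, such as Gm28661 for mt-Co2, and for mt-Atp8 none do. No reads were listed for Gm28661 either. How reads that match several places were counted is not given in the sources used here, and the cause of the zeros was not tested. For the genes that kept reads, windows were shared for 62.2% of mt-Nd4 and 51.1% of mt-Co1, and for none of mt-Nd1, mt-Nd6 and mt-Cytb.

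The members varied together from library to library more than they did between the groups. WT 3, which has the most reads, was the lowest WT library for 76 of the 92 tested members, and WT 1 or WT 4 was the highest for 81. Among DKO libraries, DKO 4 was the lowest for 56 and DKO 5 the highest for 57. The mean log2(CPM + 0.5) of the 92, relative to the WT mean, was 0.15, -0.04, -0.27 and 0.16 in WT 1 to WT 4 and -0.04, 0.04, 0.10, -0.14 and 0.19 in DKO 1 to DKO 5. The group difference of 0.03 is thus smaller than the SD of 0.20 among WT and 0.13 among DKO libraries. Complex IV spread most among the complexes, from -0.40 in WT 3 to 0.25 in WT 4, and complex II least.

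**Figure D4:**
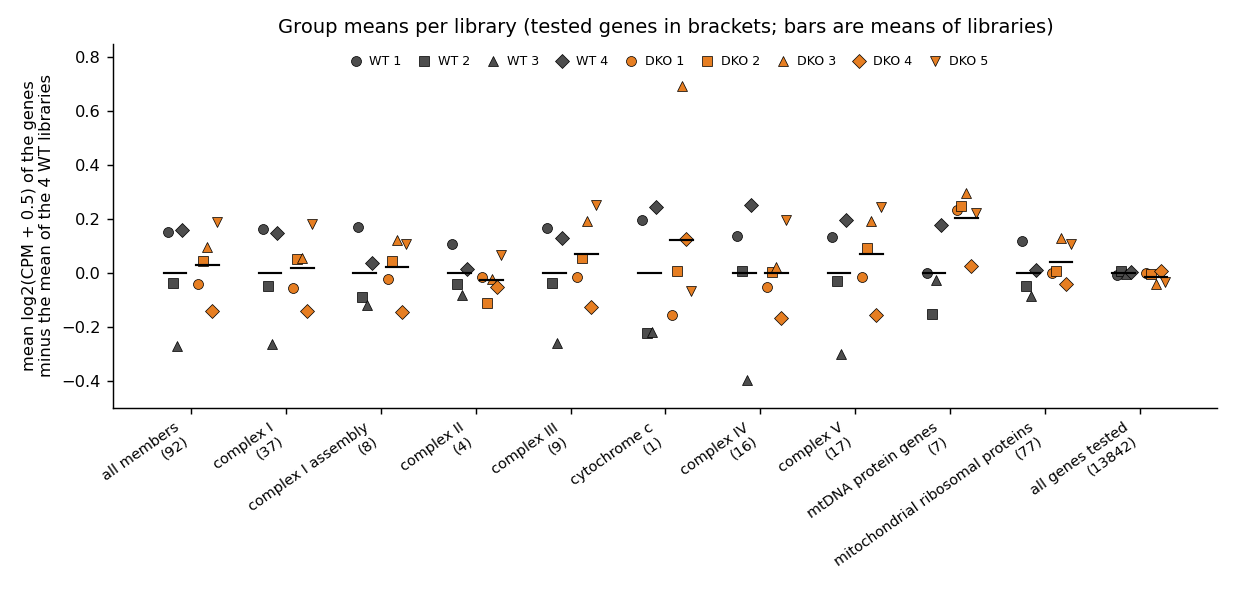
Mean log2(CPM + 0.5) of the tested genes of each group, minus the mean of the 4 WT libraries (vertical axis), for each WT (grey) and DKO (orange) library, with means as bars. In the respiratory chain groups of more than 4 genes WT 3 and DKO 4 lie lowest within their groups, while the mean over all 13842 tested genes is nearly level.

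Transcript length moved with this pattern. The 29 tested members with transcripts under 600 bases had a median deviation of -0.43 in WT 3 and -0.26 in DKO 4, against 0.29 in WT 4 and 0.30 in DKO 5. For the 7 members of 2000 to 3999 bases the same 4 libraries had -0.04, -0.03, -0.05 and 0.05. Other genes under 600 bases, 578 in number, had -0.17 in WT 3 and -0.11 in DKO 4, and 0.04 in WT 4 and 0.09 in DKO 5. The part of library preparation in this spread was not tested. Leaving out WT 3 moved the members' median log2 fold change to -0.06 and leaving out DKO 4 moved it to 0.07, with 0 members called each time. Each complex had a median of either sign when single libraries were left out, from -0.07 to 0.07 for complex I, -0.03 to 0.04 for complex II, -0.02 to 0.13 for complex III, -0.17 to 0.07 for complex IV and -0.01 to 0.14 for complex V.

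**Figure D5:**
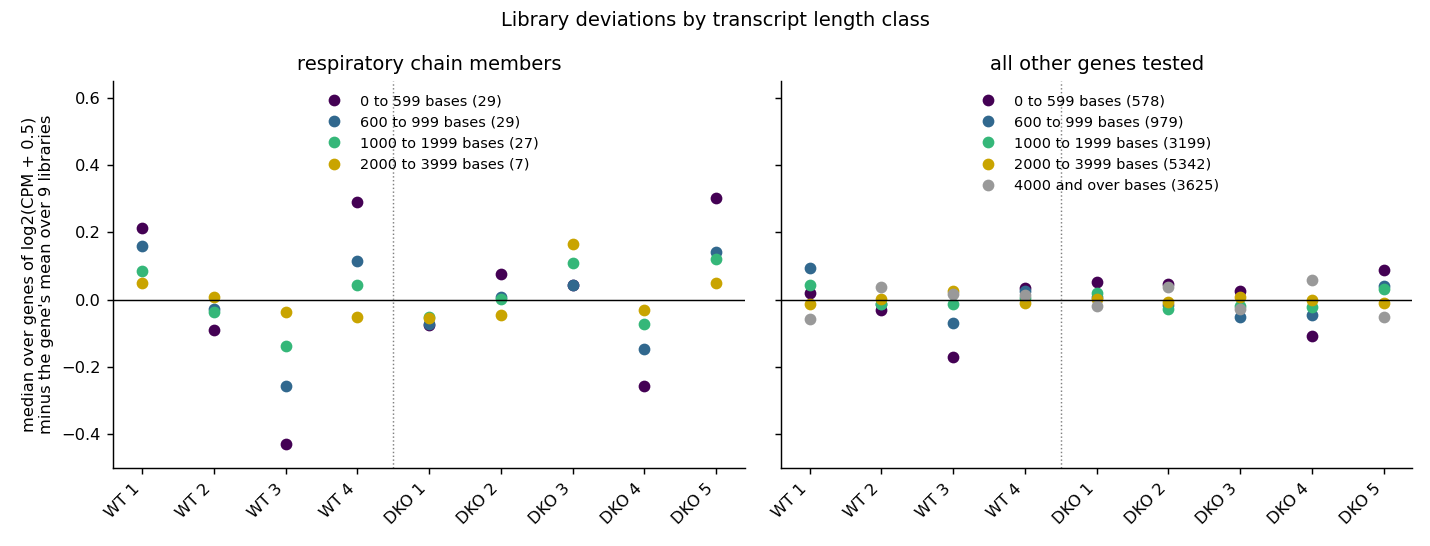
Median over genes of log2(CPM + 0.5) minus the gene's mean over the 9 libraries (vertical axis), by library and transcript length class, for the tested members (left) and all other tested genes (right), with gene numbers in brackets. Members under 600 bases reach -0.43 in WT 3 and 0.30 in DKO 5, and members of 2000 to 3999 bases stay between -0.06 and 0.16.

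As a share of all reads, without scaling, the 95 members made up 1.35, 1.25, 1.18 and 1.32% in WT and 1.08, 1.04, 0.956, 1.16 and 1.04% in DKO, that is 1.27% ± 0.0779 of all counted reads (WT, SD, n = 4) against 1.06% ± 0.0735 (DKO, SD, n = 5). The DKO libraries all lay under the WT libraries on this scale. Beside it, 6 acinar marker genes alone took 20.05% ± 3.15 of all counted reads (WT, SD, n = 4) against 26.7% ± 3.62 (DKO, SD, n = 5), and every DKO library lay above every WT library there. Scaling by total reads moves the transcriptome-wide median to -0.28 on the log2 scale and that of the members to -0.27, so the members stood 0.01 above all genes. The medians of the complexes then all lay below 0, from -0.35 for complex IV to -0.22 for complex III. On this scale more RNA of secreted proteins and less respiratory chain RNA cannot be told apart.

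Regulators of mitochondrial biogenesis did not pass the test either. Of the 18 listed, 17 were tested and 0 called by edgeR or DESeq2. By edgeR 3 of the 17 had an unadjusted p under 0.05, where 14.5% of all tested genes did. WT and DKO values did not overlap for 2 of the 17, where 6.00% of all tested genes did not. Ppargc1a, the inducible coactivator of the chain's genes, was measured at 10.2, 16.5, 13.4 and 15.8 CPM in the 4 WT libraries and at 15, 17.1, 24.6, 25.6 and 17.6 CPM in the 5 DKO libraries, with overlapping groups and a log2 fold change of 0.52 (95% interval 0.10 to 0.94, edgeR adjusted p = 0.237). Its relative Ppargc1b had a fitted log2 fold change of -0.36 (95% interval -0.66 to -0.07, edgeR adjusted p = 0.236) and no overlap between the groups. Esrrg, an estrogen-related receptor of highly oxidative tissues, was measured at 42.6, 33.9, 48.9 and 40.9 CPM in the 4 WT libraries and at 23.2, 28.3, 11.3, 32.3 and 31.8 CPM in the 5 DKO libraries. All DKO libraries of Esrrg lay under the WT range, and it had a fitted log2 fold change of -0.71 (95% interval -1.26 to -0.17, edgeR adjusted p = 0.207). Nrf1 (-0.01), Gabpa (0.02), Esrra (0.03) and Tfam (-0.05), the factor that packs and transcribes mitochondrial DNA, had fitted log2 fold changes close to 0. The 23 tested members with an NRF1 core in the promoter had a median of 0.06 and the 52 without had 0.01, and the 11 with a YY1 core had 0.02.

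No gene of the other mitochondrial lists was called by edgeR. None of 38 tested assembly factors of other complexes was called (median -0.02, 15 above 0 and 23 below). Among them is Cox10, which makes the heme of complex IV and lies on chromosome 11 between the 2 deleted genes. It was measured at 17.5, 18.3, 17.6 and 19.01 CPM in the 4 WT libraries and at 19.6, 19.9, 30.4, 17.1 and 20.6 CPM in the 5 DKO libraries, with DKO 3 well above the rest, and had a fitted log2 fold change of 0.25 (95% interval -0.09 to 0.58, edgeR adjusted p = 0.514). Of 77 tested mitochondrial ribosomal protein genes 0 were called (median 0.04), and of 23 carriers, import and structure genes 0 were called (median -0.01). At an unadjusted p under 0.05 these 3 lists held 0, 2 and 2 genes, where 14.5% of all tested genes stood. DESeq2 called no gene of these lists. Of 19 genes of the citric acid cycle and pyruvate metabolism 0 were called by edgeR and 1 had an unadjusted p under 0.05 (median 0.02). DESeq2 called that gene, Pcx, pyruvate carboxylase, which had a fitted log2 fold change of 0.54 (95% interval 0.19 to 0.90, edgeR adjusted p = 0.136). Cs, citrate synthase, often read as a gauge of mitochondrial content, was at 153 ± 9.93 CPM (WT, SD, n = 4) against 159.7 ± 21.7 CPM (DKO, SD, n = 5), and its log2 fold change was 0.06 (95% interval -0.19 to 0.32, edgeR adjusted p = 0.864).

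All 12 granular duct markers, most of them kallikreins, had lower fitted values (median -2.11), the summed level was 49531 to 123039.5 CPM in WT and 6433 to 39155 CPM in DKO, edgeR called 1, Klk1b27, and DESeq2 called all 12. The 8 markers of striated and other ducts were mixed, 3 above 0 and 5 below, with 0 called by edgeR, 5 by DESeq2 and 6 at an unadjusted p under 0.05, and summed to 6259 to 11198 CPM in WT and 10235 to 12772 CPM in DKO, of which Klk1 holds most. Among them Fxyd2, a regulator of the sodium pump, had a fitted log2 fold change of 0.57 (95% interval 0.18 to 0.96, edgeR adjusted p = 0.164), and Scnn1b, a subunit of the epithelial sodium channel, had a fitted log2 fold change of -0.78 (95% interval -1.28 to -0.29, edgeR adjusted p = 0.126). The 6 acinar markers all lay above 0 (median 0.65, 0 called by edgeR, 2 by DESeq2, 3 at an unadjusted p under 0.05) and the 6 myoepithelial markers all below (median -0.88, 1 called by edgeR, Myh11, 4 by DESeq2, 5 at an unadjusted p under 0.05). Klk1b27 was not called under 10 of 20 alternatives, and Myh11 was not called under 10 either. None of the duct, acinar or myoepithelial markers was at 0 in a whole group, and the part of cell makeup in the members' values was not tested.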

How the data were processed

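Total RNA of 9 male SMGs (4 WT, 5 DKO) had been made into unstranded Nextera XT libraries and sequenced on a HiSeq2500. Per the labels and the submitters' processing notes, the tools were STAR 2.5.2a, DESeq2, edgeR and limma. The notes list the builds GRCm38, mm10 and GRCh38 with no role for each, and positions here are on GRCm38. The deposited files hold raw counts per Ensembl gene, a filtered subset of them, and a signal table of normalized values that the authors named CPM_TMM. That deposited signal table holds whole reads divided by scaled library sizes. It supplied the symbols, and all tests used the raw counts, joined by Ensembl id. Columns of the deposited tables were matched to samples by name.

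Genes were filtered with filterByExpr, scaled by TMM and tested with edgeR 4.0.16 (quasi-likelihood, R 4.3.3, Benjamini-Hochberg adjustment over 13842 genes, threshold 0.05). Intervals are the log2 fold change ± t times its SE. Single values used exact two-sided permutation tests over the 126 splits of 9 libraries. The code was tested on simulated data. Transcript lengths, positions and shared 50-base windows came from GENCODE M21, promoters from RefSeq. The transcript was the one of middle length among the principal forms. Total counts ran from 17053747 to 37870519, and the intervals cover counting error and the spread between libraries together. The paper describes the WT and DKO mice as littermates, and the labels do not say which glands came from the same litter. Correlations of same-numbered glands were low and cannot settle the pairing, so the numbers were not taken as pairs.

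The members and lists were chosen with earlier results of these data known. Genes named are any called member, the extremes and the most abundant member of each complex, the isoform pairs, the complex II and cytochrome genes, the 2 deleted genes with Cox10, 4 regulators, the mitochondrial DNA genes and members without overlap. Others named, such as Ndufs1, Ndufs8, Ndufv1, Ndufv2, Esrrg, Ppargc1b, Gabpa, Pcx, Cs, Fxyd2, Scnn1b, Acta1, Ckm, Cidea, Klk1b27 and Myh11, were chosen after their values were seen. Alternatives were DESeq2, limma, other scalings and filters, a replicate block and leaving out each library.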

Additional observations from a re-analysis of the deposited data

Results flagged for a closer look

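In 3 of 89 groups of 4 or 5 libraries tested by Dixon's criterion, 1 library stood apart from the rest, and chance alone gives about 1 in 20. Atp5b in DKO was 888 CPM in DKO 3, against 719 to 758 CPM in the other 4 DKO libraries. Ndufaf7 in DKO was 37.5 CPM in the same library, against 43.8 to 45.8 CPM in the others. The mitochondrial gene mt-Nd1 in DKO was 547 CPM in DKO 2, against 617 to 644 CPM in the others. DKO 3 has the smallest TMM factor of the 9 libraries, 0.774, and its 20 most abundant genes took 70.3% of its reads. The part of scaling in these values was not tested.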

How the results depend on the processing

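Under 20 alternatives, 0 members were called in 19. Total counts without scaling factors, an alternative added after the data were seen, called 1, Ndufs4 (log2 fold change -0.56, adjusted p = 0.0498), moved the members' median from 0.03 to -0.27 beside -0.28 for all genes, and turned the log2 fold change of Ndufs7 to -0.0734. Over all alternatives the adjusted p of Ndufs4 ran from 0.0498 to 0.615. The members' median was below 0 under 5 alternatives and ran from -0.06 to 0.08 when single libraries were left out. The 87 genes called in all became 616 with DESeq2, 148 with limma-voom, 347 with no filter on low counts, 357 with total counts without scaling factors, 5 with upper-quartile factors and 5 without the 20 most abundant genes. Leaving out 1 library gave 0 to 441 calls, highest without DKO replicate 4 (441) and WT replicate 2 (306), and 0 without DKO replicate 2, DKO replicate 5, WT replicate 1, WT replicate 3 or WT replicate 4. With the replicate block edgeR called 0 genes. The numbers were not taken to pair the glands: correlations of same-numbered deviations were 0.15, 0.298, 0.0739 and 0.0136. Over the 41 named genes with a fit, 743 of 820 values under alternatives kept the sign of the reported value. The causes were not tested. Members under 1 CPM rest on few reads, and Hs3st3b1 kept its direction but was not called under 10 alternatives.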
